A study of Mus musculus with 12 samples.

Results

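Innate receptors are the proteins with which macrophages and their relatives sense microbes, damaged cells and antibody-coated particles, and 64 genes for such receptors and their partners were followed here in epididymal fat, out of 18113 genes on the array. The genes were chosen by name: C-type lectins of the Clec family other than Clec10a, Toll-like receptors, Siglecs, IgG Fc receptors, Nlrp proteins, the scavenger receptor Msr1, and Cd14, Ly96, Myd88 and Fcer1g. RNA came from the epididymal fat of male C57BL/6J mice aged 20 weeks that had eaten their diet since weaning at 4 weeks. The 4 groups were Siah2 knockout mice on high fat diet (45% fat, 8 animals), Siah2 knockout mice on low fat diet (10% fat, 10 animals), wild type mice on high fat diet (45% fat, 10 animals) and wild type mice on low fat diet (10% fat, 10 animals). Siah2 is a ubiquitin ligase, which tags other proteins for breakdown, and per the labels it was missing from the whole body, so that fat cells, blood vessels and immune cells of a knockout mouse all lacked it. Each group gave 3 arrays, and each array held RNA pooled from 2, 3 or 4 animals, so the spread between arrays is that between pools and not that between single mice. Levels are the authors' normalized bead intensities in arbitrary units, changes are log2 differences of intensity plus 50, and a change was called when limma's adjusted p over all 11774 genes tested was under 0.05.

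C-type lectins such as Dectin-1 and Dectin-2 bind sugars or lipids of fungi and bacteria and signal through the kinase Syk, many of them by way of Fcer1g, the common gamma chain that activating IgG receptors share. Toll-like receptors recognise lipoproteins and lipopolysaccharide at the cell surface or nucleic acids in endosomes, and most of them signal through the adaptor Myd88. In fat tissue these receptors are best known from macrophages, which gather in epididymal fat as mice become obese.

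The fat samples carried strong adipocyte signal, with 10 of 10 adipocyte markers measured and a summed intensity between 136600 and 218600 on the 12 arrays. The Siah2 probe averaged 66.0 ± 19.3 in knockout and 99.0 ± 15.6 in wild type (SD, n = 6 each; exact permutation p = 0.0108, two-sided), but the sample labelled knockout, low fat, replicate 1, was at 101.9, inside the wild type range, and it also had the highest mean of skeletal muscle markers. By limma Siah2 was not called between knockout and wild type on either diet. The difference was -0.43 on high fat (SE 0.15, limma adjusted p = 0.338) and -0.31 on low fat (SE 0.15, limma adjusted p = 0.1998). The sources used here do not say which exons were disrupted, and whether the Siah2 probe lies within them was not tested. Transcripts of the neighbouring epididymis moved with the groups: the summed intensity of 20 epididymal markers was 91.0 to 70630 in knockout on high fat, 8881 to 99570 in knockout on low fat, 766 to 1243 in wild type on high fat and 155400 to 289000 in wild type on low fat. The highest value of the knockout high fat group belonged to its replicate 2. The sum of 9 seminal vesicle markers was 19.0 to 295 in knockout on high fat and 5546 to 7035 in knockout on low fat. In wild type this sum was -1.87 to 69.3 on high fat and 63450 to 261200 on low fat. Counts of called genes were therefore also taken with the mean of the epididymal markers as a covariate. No covariate was fitted for the seminal vesicle markers.

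Of the 64 genes, 36 had a probe detected on at least 3 arrays and are called measured below; 28 of these were detected on all 12 arrays. All 6 Fc receptor genes, all 3 Toll-like receptor partners and 4 of 4 surface and 4 of 6 endosomal Toll-like receptors on the array were measured. Among the lectins, 6 of 8 of the Dectin cluster and related genes, 5 of 9 of the Dcir family and other myeloid lectins and 5 of 8 of stromal, endothelial or other kinds were measured. Of 4 Siglecs, Siglec1 and Siglech were measured, and of 15 Nlrp genes only Nlrp14, a gene known from germ cells. The other 28 genes included Msr1, Nlrp3 (the sensor of the best known inflammasome), Clec4e (Mincle), Clec5a, Clec12a and Siglece. Of these, Tlr12 was detected on at least 1 array and the other 27 on none, which bounds their signal on this platform and says nothing of their RNA in single cells. The other 8 measured genes were seen on fewer arrays: Clec4d and Tlr1 on 10, Nlrp14 on 9, Clec4n and Clec2i on 8, Tlr8 on 6, and Clec1b and Clec9a on 3. Because a gene could pass through the group in which it was high, counts over the 36 are not counts over the 64.

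Many of the lectin genes lie together: 19 of the 64 genes, and 12 of the 36 measured ones, are on chromosome 6. The 250 bases before the first listed start site were read from RefSeq (GRCm38.p6) for 27 of the 36 genes and searched on both strands for GAGGAA, the core bound by PU.1, a transcription factor that myeloid cells need. It was present in 12 of the 27 promoters (44.4%), against 23.13% of 27025 promoters of all genes. The longer form GAGGAAGT, which contains the core, was in 2 (7.41%, against 2.44% of all). An NF-kappaB pattern, GGG, any 2 bases and TTTCC, was also in 2 (7.41%, against 1.4%), and GAAA, any 2 bases and GAAA, a pattern of interferon-stimulated genes, was in 5 (18.52%, against 3.04%). A match describes letters in this window and not binding. Promoters of 6 genes that moved most with diet are shown, 5 with the core and 1 without, with the core or its reverse complement TTCCTC in capitals. They are Clec7a at chr6:129472780-129473029 (minus strand), Clec4d at chr6:123261857-123262106 (plus strand), Clec4b1 at chr6:123049712-123049961 (plus strand), Tlr13 at chrX:106143025-106143274 (plus strand), Fcgr3 at chr1:171059404-171059653 (minus strand) and Fcer1g at chr1:171234350-171234599 (minus strand).
Clec7a: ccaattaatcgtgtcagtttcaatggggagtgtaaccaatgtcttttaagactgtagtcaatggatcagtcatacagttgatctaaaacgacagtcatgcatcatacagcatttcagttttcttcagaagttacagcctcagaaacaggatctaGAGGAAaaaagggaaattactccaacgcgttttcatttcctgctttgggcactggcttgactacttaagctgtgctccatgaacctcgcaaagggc
Clec4d: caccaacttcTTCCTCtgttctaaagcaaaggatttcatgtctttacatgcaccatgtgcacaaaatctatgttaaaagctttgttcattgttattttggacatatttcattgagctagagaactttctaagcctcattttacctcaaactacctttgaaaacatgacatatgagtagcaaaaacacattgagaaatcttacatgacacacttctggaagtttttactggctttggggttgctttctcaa
Clec4b1: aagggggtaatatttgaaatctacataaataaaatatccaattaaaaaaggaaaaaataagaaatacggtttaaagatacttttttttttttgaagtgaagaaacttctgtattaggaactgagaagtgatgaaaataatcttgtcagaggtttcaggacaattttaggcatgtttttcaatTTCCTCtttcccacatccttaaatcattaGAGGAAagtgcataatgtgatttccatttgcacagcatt
Tlr13: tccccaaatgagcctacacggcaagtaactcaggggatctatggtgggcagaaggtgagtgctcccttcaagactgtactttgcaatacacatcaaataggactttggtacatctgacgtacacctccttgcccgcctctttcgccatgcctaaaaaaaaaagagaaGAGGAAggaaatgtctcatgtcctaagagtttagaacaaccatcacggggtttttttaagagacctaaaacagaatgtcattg
Fcgr3: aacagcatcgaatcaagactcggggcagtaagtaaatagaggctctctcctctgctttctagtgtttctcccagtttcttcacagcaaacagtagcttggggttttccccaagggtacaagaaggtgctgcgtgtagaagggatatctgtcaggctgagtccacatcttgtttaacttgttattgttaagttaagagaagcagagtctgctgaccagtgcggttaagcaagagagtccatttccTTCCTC
Fcer1g: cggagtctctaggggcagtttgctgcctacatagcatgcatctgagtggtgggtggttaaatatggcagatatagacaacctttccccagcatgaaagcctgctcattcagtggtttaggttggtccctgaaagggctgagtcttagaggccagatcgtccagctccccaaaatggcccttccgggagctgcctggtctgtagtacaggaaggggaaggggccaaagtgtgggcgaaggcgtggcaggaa

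In wild type mice most of the measured innate receptors were higher on the high fat diet. Of the 36 genes, 25 were called higher and 2 lower, while over all genes tested 22.7% were called higher and 16.7% lower. The median log2 change of the 36 was 1.09, against 0.06 for all genes, and it stayed at 1.09 with the 4 genes that were below the floor of detection on low fat set to their bounds. The groups did not overlap, with every high fat array above every low fat array, for 25 of the 36 genes, against 29.2% of all genes. They were separated in the other direction for 3 (Myd88, Clec11a and Clec9a), against 22.3%, but Clec9a was below the floor of detection on every array of both groups, where values have no order. The 28 genes detected on all 12 arrays gave 21 higher and 2 lower. Bulk RNA cannot tell apart more cells carrying a receptor from more receptor RNA per cell. In wild type the diets also differed in epididymal and seminal vesicle signal, which was highest on low fat. The parts of diet and of such tissue in the receptor changes cannot be told apart here.

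Among the Dectin cluster lectins, Clec7a (Dectin-1, the receptor for fungal beta-glucan) and Clec4d (MCL, a partner of Mincle in sensing mycobacterial glycolipid) rose. Clec7a stood at 2196, 1091 and 1439 in wild type on high fat and at 121, 236 and 188 in wild type on low fat, a log2 change of 2.79 (SE 0.27, adjusted p = 7.7e-05). Clec4d stood at 437, 379 and 428 on high fat and at 4.76, -1.36 and 18.9 on low fat. All low fat arrays lay below 27.9, the approximate floor of detection, so Clec4d was at least 5.96-fold higher on the scale of intensity plus 50 (adjusted p = 1.6e-06). The other 4 measured genes of this group were not called: Clec2d, a ligand of an NK cell receptor, had a change of 0.81 (SE 0.33, adjusted p = 0.0715), and Clec4n (Dectin-2) one of 0.32. Clec1b, a receptor of platelets, and Clec9a, a receptor of dendritic cells for dead cells, were below the floor on all arrays of both groups, so no fold is given.

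All 5 measured genes of the Dcir family and other myeloid lectins rose, with a median of 2.11. Clec4b1, an activating lectin that pairs with the common gamma chain, stood at 1485, 1255 and 1133 in wild type on high fat and at 104, 160 and 93.2 in wild type on low fat, a change of 3.00 (SE 0.25, adjusted p = 3.2e-05). Clec4a3 stood at 1297, 1390 and 947 on high fat and at 157, 266 and 111 on low fat, a change of 2.51 (SE 0.35, adjusted p = 0.00051). Clec4a1 stood at 822, 741 and 766 on high fat and at 119, 200 and 117 on low fat, a change of 2.11 (SE 0.26, adjusted p = 0.00024). For each of these the lowest high fat array was above the highest low fat array. Clec1a rose by 0.81 and Clec4g, a lectin of sinusoidal endothelium, by 0.45. The stromal and other lectins were mixed: Clec2i was at least 1.18-fold higher, Clec3b (tetranectin) rose by 0.46, Clec11a, a secreted growth factor of bone and blood, fell by 1.22 (SE 0.30, adjusted p = 0.0085), and Clec16a and Clec2e were not called. Of the 12 measured genes on chromosome 6, 7 rose, against 25 of all 36 measured genes and 22.7% of all genes tested.

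**Figure D1:**
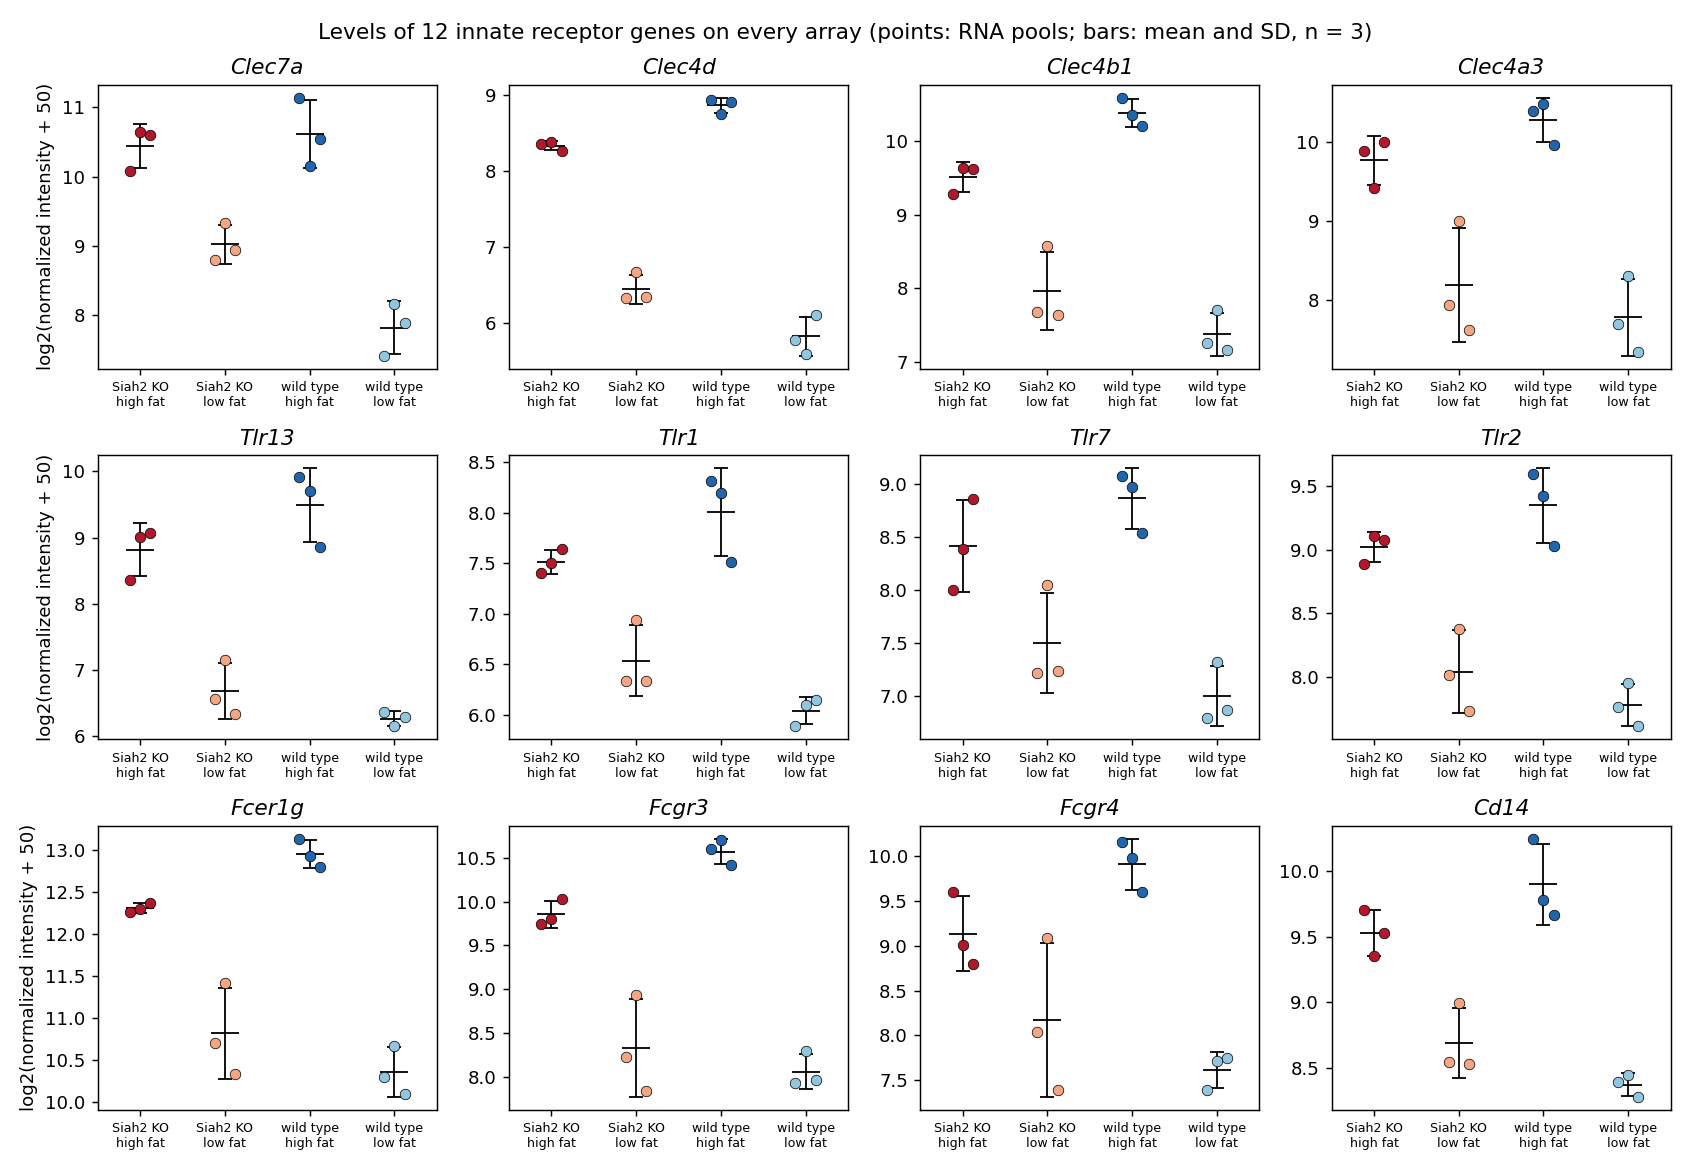
Levels of 12 innate receptor genes on each array, as log2(intensity + 50), in knockout and wild type fat on high and low fat diet; points are RNA pools and bars the mean and SD of 3. In wild type the 3 high fat points of every gene lie above the 3 low fat points, and for most genes the second knockout low fat point is the highest of its group.

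The endosomal Toll-like receptors rose in 4 of 4 cases, with a median of 1.85, or 1.62 with the bound for Tlr8. Tlr13, which recognises bacterial ribosomal RNA in mice, had the largest fitted change of the 36 genes: it stood at 912, 781 and 415 in wild type on high fat and at 32.6, 21.0 and 27.9 in wild type on low fat, a change of 3.22 (SE 0.29, adjusted p = 5.4e-05). Its low fat arrays lay near the floor, with only 2 above it, so the size of this change and its rank are uncertain. Tlr7, a receptor for single-stranded RNA, stood at 488, 451 and 322 on high fat and at 61.3, 110 and 67.3 on low fat, a change of 1.86 (SE 0.28, adjusted p = 0.00072). Tlr8 stood at 182, 283 and 55.0 on high fat and below the floor on all low fat arrays, at 1.81, 19.4 and 0.46, and was at least 2.58-fold higher (adjusted p = 0.0028). The third high fat array was the lowest of its group for all 3, yet above each low fat array. Tlr3, the receptor for double-stranded RNA, rose by 0.39 (SE 0.13, adjusted p = 0.0309).

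The surface Toll-like receptors also rose in 4 of 4 cases, with a median of 1.48. Tlr1 stood at 268, 243 and 132 in wild type on high fat and below the floor on low fat, at 9.18, 18.4 and 20.7, and was at least 3.30-fold higher (adjusted p = 0.00015). Tlr6 stood at 159, 206 and 166 on high fat and at 53.0, 37.0 and 21.6 on low fat, a change of 1.39 (SE 0.17, adjusted p = 0.00022). Both pair with Tlr2 to bind bacterial lipoproteins, and Tlr2 itself rose by 1.57 (SE 0.19, adjusted p = 0.0002). Tlr4, the receptor for lipopolysaccharide, rose by 1.13 (SE 0.21, adjusted p = 0.0021), and Cd14, which hands lipopolysaccharide to it, by 1.53 (SE 0.18, adjusted p = 0.00017). The other partners did not follow: Ly96 (MD-2), the chain that binds lipopolysaccharide on Tlr4, had a change of 0.13 (SE 0.19, adjusted p = 0.634). Myd88 fell, standing at 2213, 2192 and 2256 on high fat and at 3699, 2621 and 2850 on low fat, a change of -0.44 (SE 0.13, adjusted p = 0.0223). Its 3 high fat arrays lay close together and below all low fat arrays.

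All 6 Fc receptor genes rose, with a median of 1.82. Fcer1g, the common gamma chain, stood at 8955, 7760 and 7070 in wild type on high fat and at 1217, 1587 and 1044 in wild type on low fat, a change of 2.60 (SE 0.24, adjusted p = 5.5e-05). Fcgr3, an activating IgG receptor that needs this chain, stood at 1504, 1617 and 1317 on high fat and at 193, 263 and 199 on low fat, a change of 2.52 (SE 0.24, adjusted p = 6e-05). Fcgr4, another activating IgG receptor, stood at 1090, 958 and 724 on high fat and at 117, 159 and 164 on low fat, a change of 2.30 (SE 0.37, adjusted p = 0.001). The diets were separated by a wide gap for all 3. Fcgr1, the high affinity IgG receptor, rose by 1.34, Fcgrt, the neonatal Fc receptor that recycles IgG and albumin, by 1.06, and the inhibitory receptor Fcgr2b by 0.71 (SE 0.21, adjusted p = 0.0229). Siglec1, a sialic acid receptor of macrophages, rose by 1.15 (SE 0.29, adjusted p = 0.0103), while Siglech, known from plasmacytoid dendritic cells, had a change of -0.68 (SE 0.43, adjusted p = 0.23) and Nlrp14 one of -0.60.

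With the epididymal mean as a covariate 1 of the 36 genes, Clec4d, was called in wild type, and over all genes 4 were called. The median change of the 36 was then 0.59 and the median SE 0.50, in place of 0.22, and 23 of the 25 genes that had risen were still above 0, all but Clec2i and Siglec1. Of the genes that had fallen, Clec11a changed sign, to 0.40 (SE 0.47), and Myd88 had a change of -0.18 (SE 0.32). The epididymal mean separated the wild type arrays by diet, at 6.20 to 6.41 on high fat and 11.55 to 13.19 on low fat.

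In knockout mice 12 of the 36 genes were called higher on high fat diet and 0 lower. Over all genes tested 3.52% were called higher and 0.815% lower. At an unadjusted p under 0.05, 1 of the 36 was lower, Clec2e (a change of -0.76, adjusted p = 0.0831), and 19 were higher, where all genes gave 6.57% lower and 10.3% higher. The median change was 0.47, against -0.01 for all genes. The 12 were Clec7a, Clec4d, Clec4b1, Clec4a1, Clec4a3, Tlr1, Tlr2, Tlr6, Tlr13, Cd14, Fcer1g and Fcgr3, and all of them were also called in wild type. Every high fat array was above every low fat array for 17 of the 36 genes, against 12.2% of all genes, and below them for 1, Clec2e, against 9.82%.

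Tlr13 again had the largest change: it stood at 278, 466 and 489 in knockout on high fat and at 44.5, 92.02 and 31.1 in knockout on low fat, a change of 2.13 (SE 0.29, adjusted p = 0.005). Clec4d stood at 276, 283 and 258 on high fat and at 30.3, 51.7 and 31.2 on low fat, a change of 1.89 (SE 0.14, adjusted p = 0.00018). Clec7a stood at 1033, 1554 and 1505 on high fat and at 394, 593 and 441 on low fat, a change of 1.42 (SE 0.27, adjusted p = 0.0172). In each of these the second low fat array was the highest of its group but below all high fat arrays.

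Clec4a3 stood at 900, 636 and 981 in knockout on high fat and at 194, 462 and 146 in knockout on low fat, a change of 1.59 (SE 0.35, adjusted p = 0.0299). Clec4b1 stood at 569, 741 and 737 on high fat and at 155, 333 and 149 on low fat, a change of 1.54 (SE 0.25, adjusted p = 0.0084). Clec4a1 stood at 678, 451 and 610 on high fat and at 165, 333 and 138 on low fat, a change of 1.32 (SE 0.26, adjusted p = 0.0184). Of these 3 genes Clec4a1 and Clec4a3 had their lowest high fat and their highest low fat value both in replicate 2, and the diets still did not overlap.

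Fcgr3 stood at 807, 842 and 999 in knockout on high fat and at 248, 440 and 178 in knockout on low fat, a change of 1.53 (SE 0.24, adjusted p = 0.0075). Fcer1g stood at 4857, 5013 and 5264 on high fat and at 1617, 2682 and 1248 on low fat, a change of 1.49 (SE 0.24, adjusted p = 0.0085). The remaining calls were Tlr2 (0.98), Tlr1 (0.98), Cd14 (0.84) and Tlr6 (0.69). Fcgr4, which rose in wild type, stood at 729, 463 and 394 on high fat and at 212, 494 and 118 on low fat in knockout, with overlapping groups and a change of 0.96 (SE 0.37, adjusted p = 0.198). Tlr7 had a change of 0.91 (adjusted p = 0.103) and Fcgrt one of 0.21 (adjusted p = 0.723). Tlr8 was below the floor on every knockout low fat array and at least 1.51-fold brighter on high fat, but was not called (adjusted p = 0.136).

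Replicate 2 of the knockout low fat group had the highest value of its group for 28 of the 36 genes. The count in knockout was 5 without the sample labelled knockout, low fat, replicate 1, 5 without replicate 3 of that group, 5 without replicate 3 and 7 without replicate 1 of the knockout high fat group, and 1 with the epididymal covariate (Clec4d, 1.75, SE 0.18, adjusted p = 0.0054). It was 1 without knockout on low fat, replicate 1, together with knockout on high fat, replicate 2, and 20 without replicate 2 of both knockout groups, a setting chosen after the data were seen. The share of all genes called when arrays were left out is not given, so these counts are no result about the receptors alone.

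**Figure D2:**
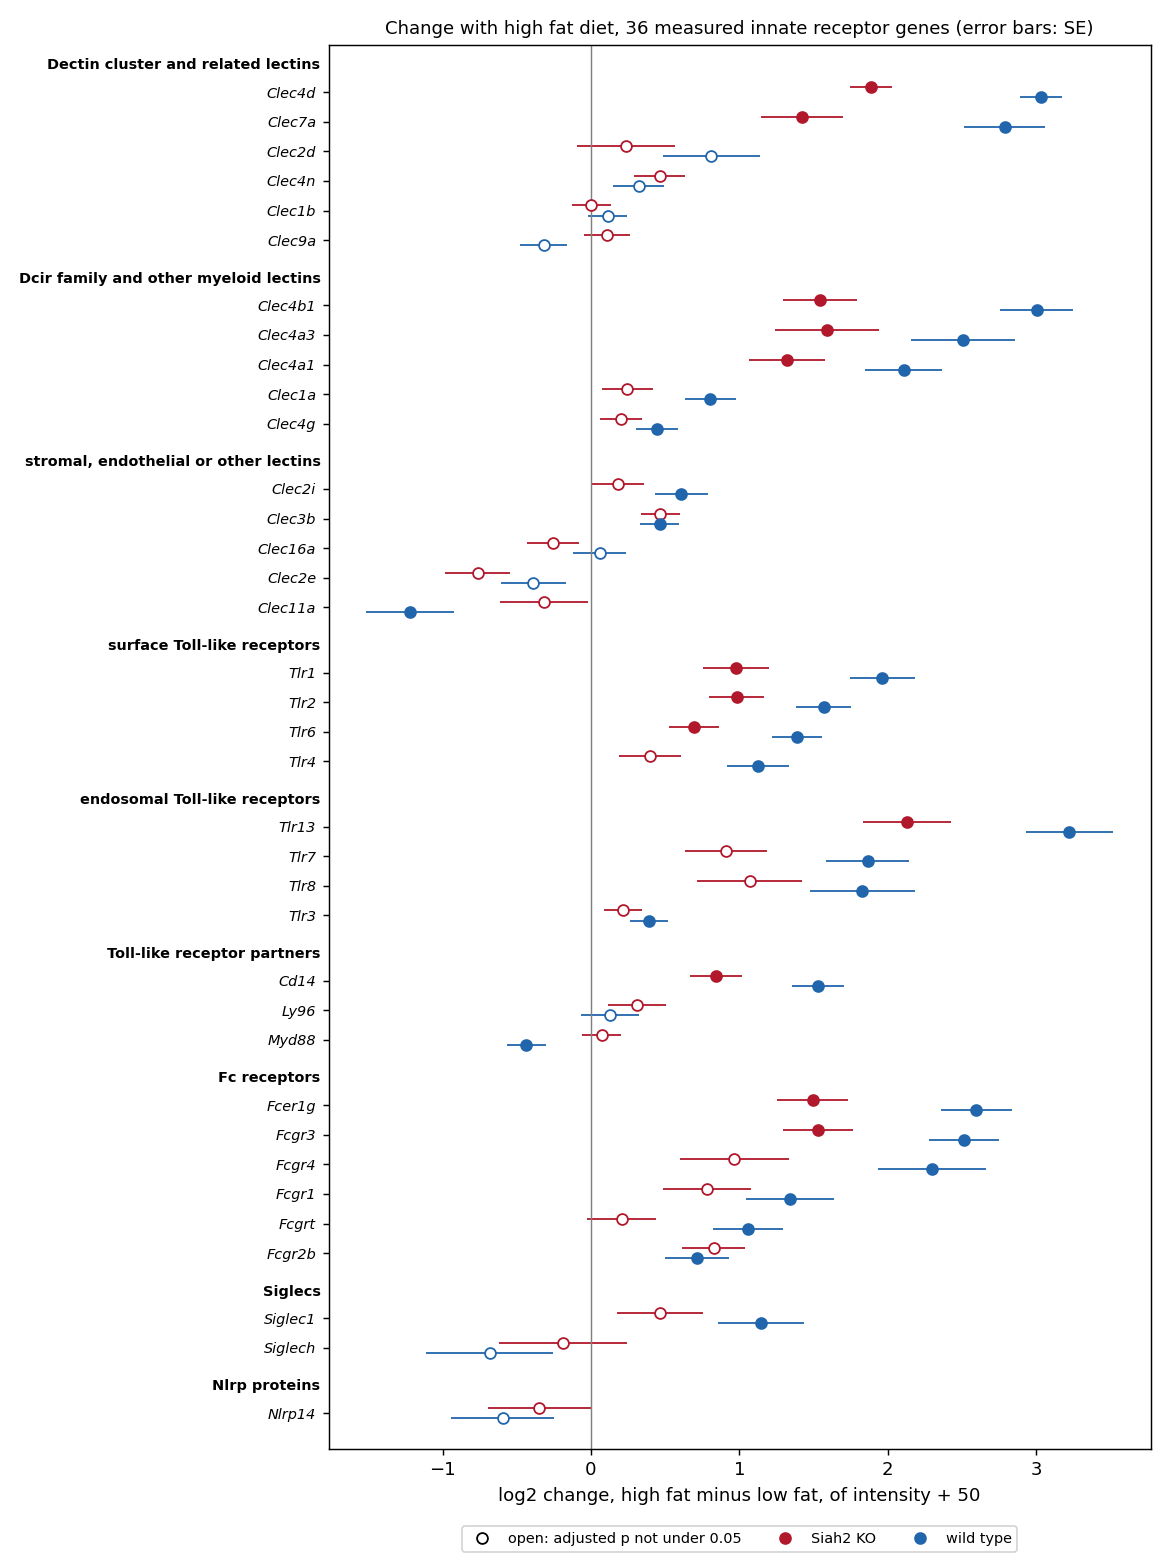
Change with high fat diet in each genotype for the 36 measured genes grouped by role, as log2 of intensity + 50, high fat minus low fat, with SE from limma (filled: adjusted p under 0.05). Filled points lie to the right of 0 for 12 genes in knockout and 25 in wild type, and filled points left of 0 are Clec11a and Myd88 in wild type. The drawn values of Clec4n and Tlr8 in knockout, and of Clec4d, Tlr1, Tlr8 and Clec2i in wild type, are fitted against a group below the floor, and Clec1b and Clec9a are below it in all groups.

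The diet changes of both genotypes are set side by side here as a description. Across the 36 genes the fitted changes correlated with r = 0.942 (Pearson) and rho = 0.947 (Spearman), a description over genes that share arrays and are not independent. Fcgr2b had a change of 0.83 in knockout and 0.71 in wild type, Ly96 one of 0.31 in knockout and 0.13 in wild type, and Clec2e one of -0.76 in knockout and -0.39 in wild type. For the 10 genes called in both genotypes and with no group wholly below the floor, the change in knockout was between 0.498 (Tlr6) and 0.661 (Tlr13) of that in wild type, with a median of 0.592. Tlr6 and Tlr13 each had only 2 wild type low fat arrays above the floor. These genes were picked by their changes in both contrasts, so the ratios are no test of a difference.

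The difference itself, the diet change in knockout minus that in wild type, was called for 0 of the 36 genes by limma, while over all genes tested 0.0595% were called higher and 0.0425% lower. The count was also 0 with the epididymal covariate. Its median over the 36 was -0.58, against -0.08 for all genes. At an unadjusted p under 0.05 it was lower for 15 genes and higher for 1, Myd88 (0.51, SE 0.18, adjusted p = 0.178), where all genes gave 12.2% lower and 8.21% higher. The 3 smallest p-values belonged to Clec4d (-1.14, SE 0.20, adjusted p = 0.072), Clec4b1 (-1.46, SE 0.35, adjusted p = 0.115) and Clec7a (-1.36, SE 0.39, adjusted p = 0.143). Clec4d passed the threshold without the sample labelled knockout, low fat, replicate 1 (adjusted p = 0.0487), and without wild type on low fat, replicate 3 (adjusted p = 0.0106), and its fitted difference includes a wild type group below the floor.

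**Figure D3:**
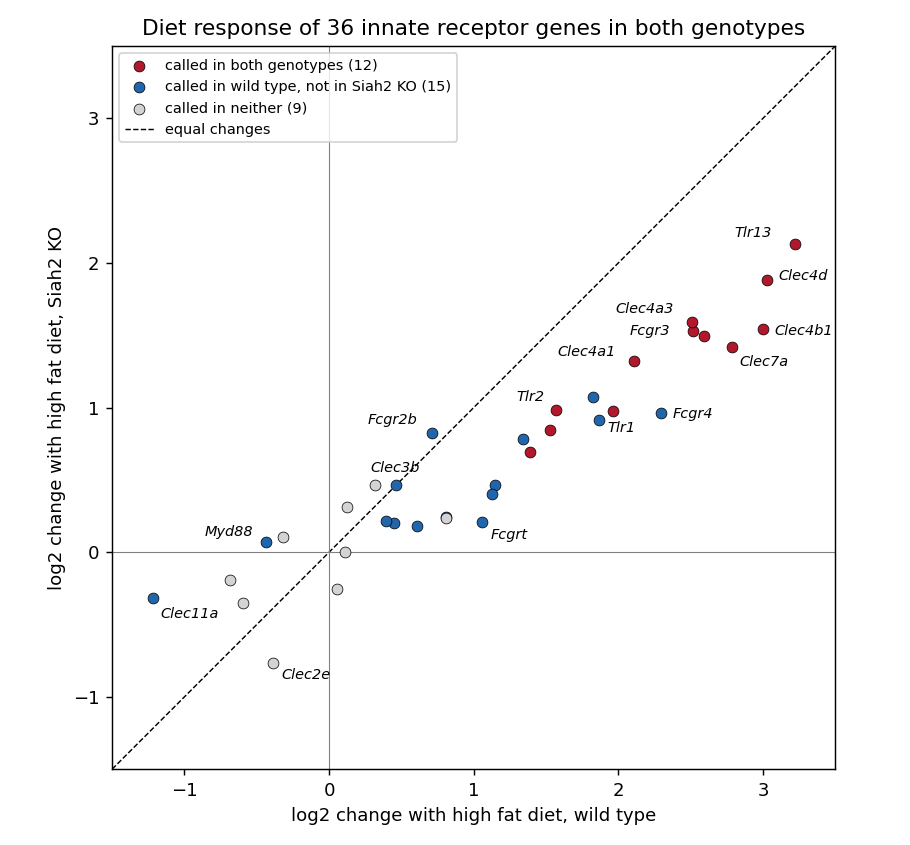
Change with high fat diet in knockout (vertical) against wild type (horizontal) for the 36 measured genes, both in log2 of intensity + 50, with a dashed line at equal changes. The 12 genes called in both genotypes all lie below the line, and 9 of the 36 genes, among them Fcgr2b, lie above it.

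On the high fat diet 0 of the 36 genes were called between knockout and wild type by limma, while over all genes tested 0% were called higher and 0.0849% lower. At an unadjusted p under 0.05, 7 of the 36 were lower in knockout (Tlr13, Clec4d, Clec4b1, Fcer1g, Fcgr3, Tlr1 and Tlr6) and 0 higher, where all genes gave 7.32% lower and 4.16% higher. The median difference was -0.18, against -0.02 for all genes, and 7 of the 36 had a difference above 0. Every knockout array was below every wild type array for 6 genes, Fcer1g, Fcgr3, Clec4d, Clec4a1, Clec4b1 and Tlr6, against 11.7% of all genes, and above for 0, against 6.34%. Clec4d stood at 276, 283 and 258 in knockout and at 437, 379 and 428 in wild type, a difference of -0.53 (SE 0.14, adjusted p = 0.217). Clec4b1 stood at 569, 741 and 737 in knockout and at 1485, 1255 and 1133 in wild type, a difference of -0.87 (SE 0.25, adjusted p = 0.232). Tlr6 stood at 110, 85.5 and 127 in knockout and at 159, 206 and 166 in wild type, a difference of -0.53 (SE 0.17, adjusted p = 0.285). The genotypes were separated for these 3 genes without reaching the threshold over all genes. The 3 genes were picked by their p-values, and a share of 6 in 36 is near the background of 11.7%. Neither is a result about the group. The number of genes called was also 0 with the epididymal covariate. Clec7a stood at 1033, 1554 and 1505 in knockout and at 2196, 1091 and 1439 in wild type, overlapping, with a difference of -0.17 (SE 0.27, adjusted p = 0.827).

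On the low fat diet 2 of the 36 genes were called higher in knockout than in wild type, Clec7a and Clec4d, and 0 lower, while over all genes tested 4.71% were called higher and 3.15% lower. A share of 2 in 36 is close to this background and is no result about the group. The median difference was 0.29, or 0.26 with bounds in place, against 0.04 for all genes. At an unadjusted p under 0.05, 7 of the 36 were higher and 1, Myd88, lower, where all genes gave 16.9% higher and 11.4% lower. Clec7a stood at 394, 593 and 441 in knockout and at 121, 236 and 188 in wild type, a difference of 1.197 (SE 0.27, adjusted p = 0.0344). Clec4d stood at 30.3, 51.7 and 31.2 in knockout and at 4.76, -1.36 and 18.9 in wild type, where it was below the floor, and was at least 1.12-fold higher (adjusted p = 0.0344). The genotypes did not overlap for either gene, though Clec4d was barely above the floor in knockout. Groups were also apart, with knockout higher, for Fcgrt, Siglec1, Cd14, Tlr1, Tlr3, Clec1a and Clec2i, so that 9 of 36 genes were apart in this direction, against 19.1% of all genes, and 3 in the other (Myd88, Clec11a and Clec9a), against 13.9%, with Clec9a again below the floor on all these arrays. Tlr1 and Clec2i were below the floor on all wild type low fat arrays, with bounds of 1.19-fold and 1.008-fold. Only 1 knockout low fat array of Clec2i was above the floor.

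The low fat calls rested on few arrays. Without replicate 2 or replicate 3 of knockout on low fat, and without replicate 1 or replicate 2 of wild type on low fat, 0 genes were called, and without replicate 3 of the last group Clec4d alone was. Without the sample labelled knockout, low fat, replicate 1, the count was 3. With the epididymal covariate 0 were called, Clec7a having a difference of 1.17 (SE 0.43, adjusted p = 0.634) and Clec4d one of 0.43 (SE 0.21, adjusted p = 0.693).

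**Figure D4:**
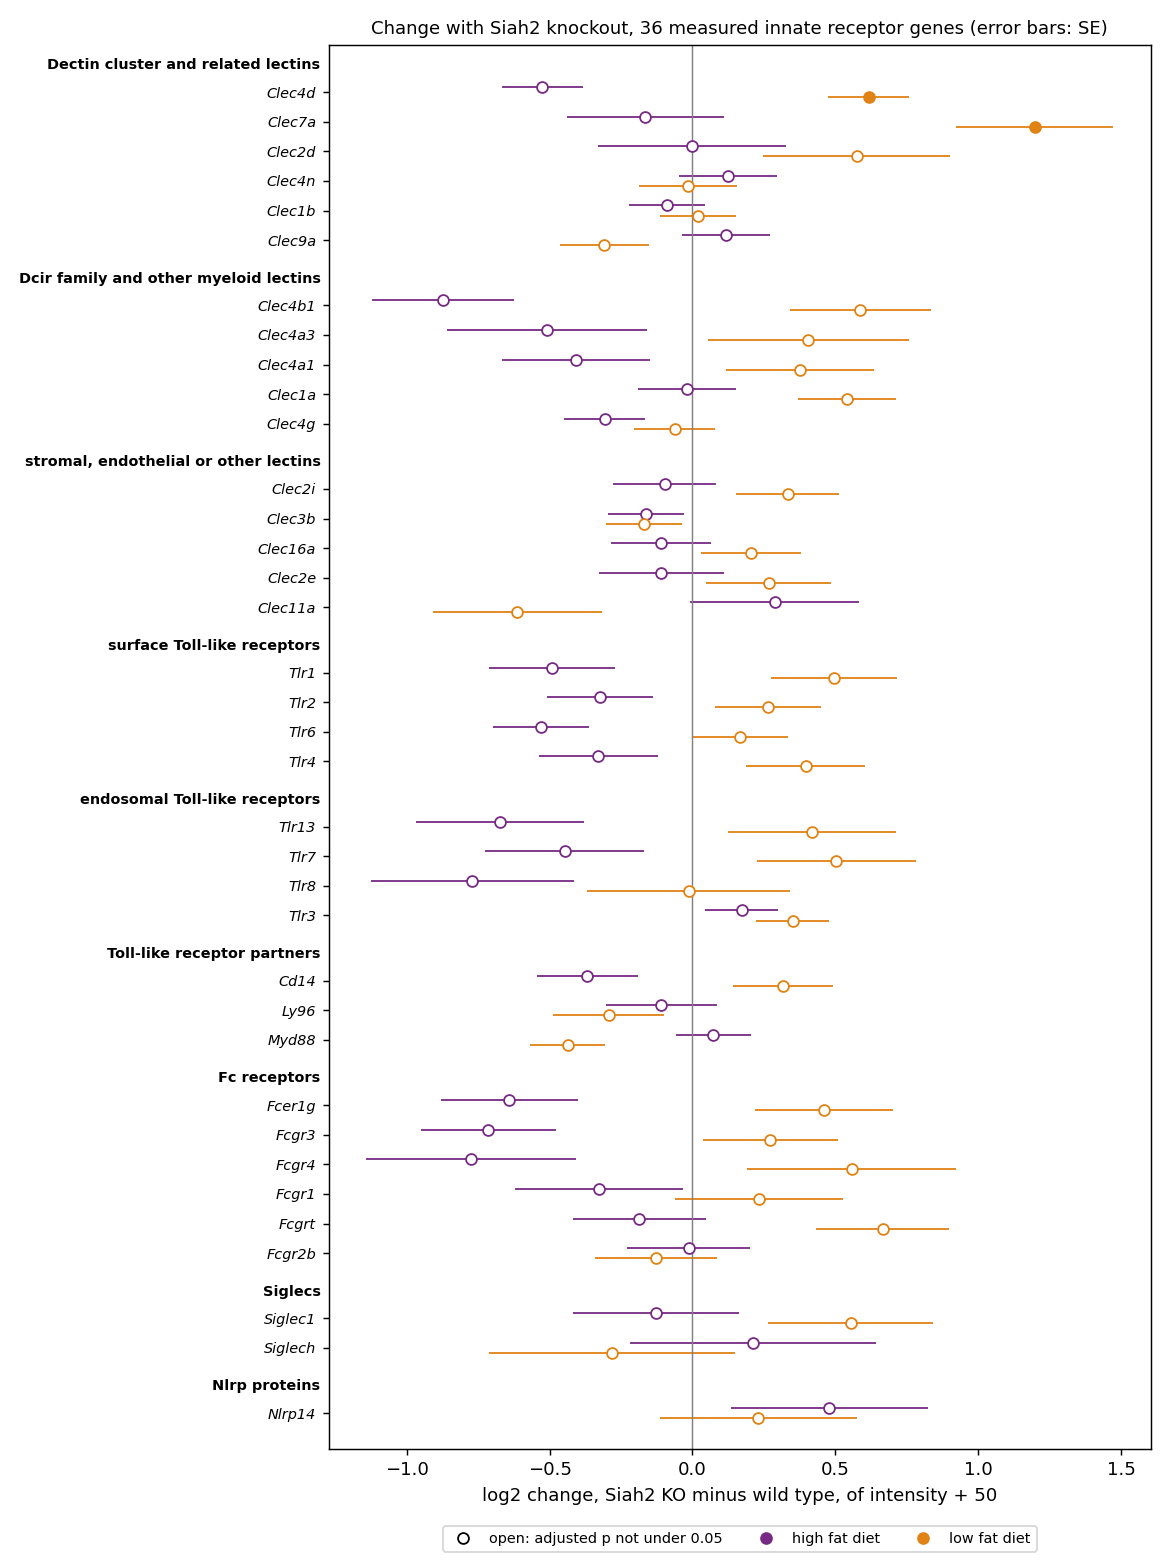
Difference between knockout and wild type on each diet for the 36 measured genes grouped by role, as log2 of intensity + 50, knockout minus wild type, with SE from limma (filled: adjusted p under 0.05). Filled points are Clec7a and Clec4d on low fat diet, and no high fat point is filled. On low fat diet Clec4d, Tlr1 and Clec2i in wild type, Clec4n in knockout, and Tlr8 in both genotypes were below the floor, as were Clec1b and Clec9a on both diets.

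Genes that act with these receptors were taken from lists of pathway members. For diet in knockout 3.52% of all genes tested were called higher and 0.815% lower, and in wild type 22.7% and 16.7%. Of 31 measured genes of Toll-like receptor signalling, 7 rose with diet in knockout and 0 fell, while 12 rose and 1 fell in wild type. Among them Unc93b1, which carries endosomal Toll-like receptors to their compartment, rose by 0.87 in knockout and by 2.02 in wild type. Irf5, a transcription factor below Tlr7, rose by 1.08 in knockout and 2.54 in wild type, and Ly86, the partner of the receptor Cd180, by 1.24 in knockout and 2.07 in wild type. Rela, Chuk and Traf6, which serve many other pathways, were not called in either genotype.

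Of 18 measured genes of the Syk-coupled and inhibitory signalling of lectins and Fc receptors, 5 rose in knockout and 14 in wild type. Tyrobp, an adaptor like the common gamma chain, rose by 1.99 (SE 0.27, adjusted p = 0.0044) in knockout and by 3.27 (SE 0.27, adjusted p = 3e-05) in wild type, and the kinase Btk by 1.24 in knockout and 2.26 in wild type. Syk itself was not called, at means of 57.5 and 56.3 in knockout on high and low fat and 98.4 and 51.9 in wild type on high and low fat. On low fat diet 1 of the 18 was called higher in knockout, Ptpn11 (0.40), and 1 lower, Plcg2 (-0.63), where all genes gave 4.71% and 3.15%, so these counts are no result about the list.

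Of 12 inflammasome genes 1 rose in knockout, Casp1, the protease that matures interleukin-1 beta (1.12, SE 0.18, adjusted p = 0.0078), and 9 in wild type, where Casp1 rose by 1.98 (SE 0.18, adjusted p = 4.6e-05). On low fat diet Casp1 (0.72), Casp4 (0.98) and Nod1 (0.51) were higher in knockout than in wild type, where 4.71% of all genes were called higher. Of 17 other scavenger and lectin-like receptors 1 rose in knockout, Trem2, a lipid receptor of macrophages, and 8 in wild type. They included Mrc1, the mannose receptor, with a change of 1.37 in wild type, and Stab1 with 0.96. In knockout the counts of 1 in 12 and 1 in 17 each rest on 1 gene, where 3.52% of all genes were called higher. They are no result about these lists. In none of the 4 lists was a gene called between the genotypes on high fat diet by limma.

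Macrophage markers moved with the receptors. The marker counts for diet stand beside 3.52% of all genes called higher and 0.815% lower in knockout, and 22.7% higher and 16.7% lower in wild type. Of 13 macrophage markers, all measured and including the receptor gene Fcgr1, 8 rose with diet in knockout (median 1.08) and 11 in wild type (median 1.78). Their summed intensity was 28610 to 34150 in knockout on high fat, 12270 to 18460 in knockout on low fat, 38930 to 51260 in wild type on high fat and 9805 to 14000 in wild type on low fat. Of the receptor genes, 8 rose by more than the marker median in knockout and 10 in wild type, counting genes below the floor on low fat at their bounds. The part of macrophage number in the receptor changes was not tested. Of 10 neutrophil markers 4 were measured, with 0 called in knockout and 2 higher and 1 lower in wild type, and Ly6g and Cxcr2 were not among those measured. On low fat diet 0 of the macrophage markers were called between the genotypes by limma (3 higher in knockout at an unadjusted p under 0.05), while 5 of 10 adipocyte markers were higher in knockout. All genes gave 4.71% called higher there, and 16.9% higher at an unadjusted p under 0.05. Dendritic cell markers rose with diet in 2 of 6 cases in knockout and 5 of 6 in wild type, fibroblast markers in 2 of 7 in knockout and 6 of 7 in wild type, and endothelial markers in 0 of 8 in knockout by limma (0 at an unadjusted p under 0.05) and 5 of 8 in wild type. Their part in the receptor changes was not tested.

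**Figure D5:**
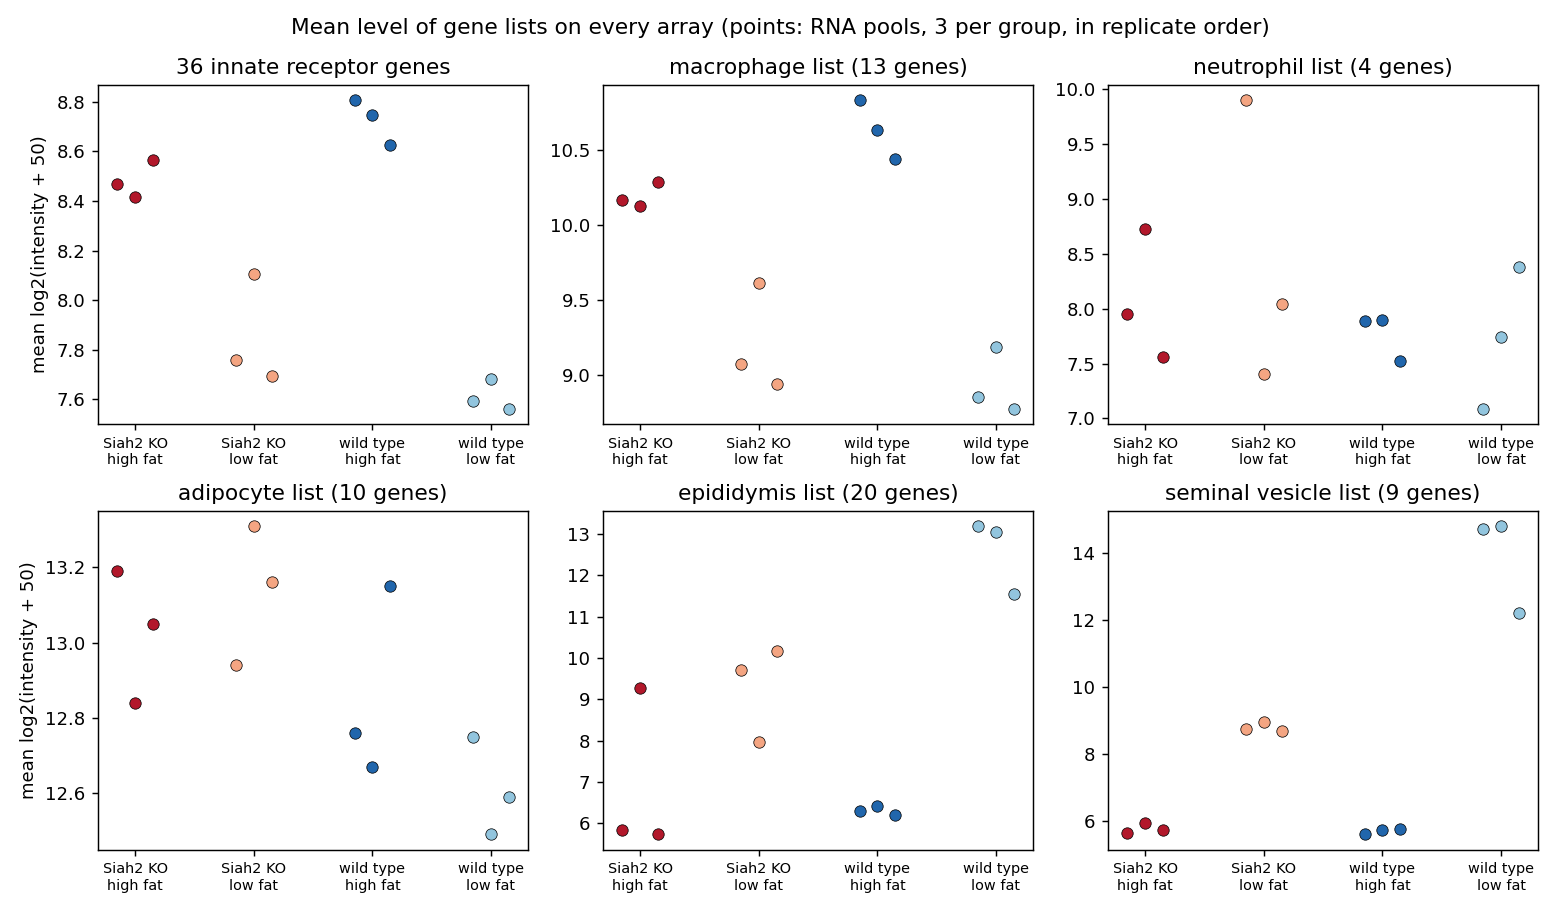
Mean log2(intensity + 50) of the 36 receptor genes and of 5 marker lists on each array, by group, with points for the 3 RNA pools. The receptor means of all arrays are highest in wild type on high fat and lowest in wild type on low fat, macrophage means overlap between the 2 low fat groups, and epididymal and seminal vesicle means are highest in wild type on low fat.

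Where a gene had several kept probes, they did not always give the same picture. The other probes of Clec4b1 changed by 2.76 and 1.71 with diet in wild type, the second of Clec4a3 by 1.73 and the second of Tlr13 by 2.03. The probes with changes of 1.71, 1.73 and 2.03 lay below the floor on every wild type low fat array, so the sizes of these changes are uncertain. A dim second probe of Clec7a, detected on 5 arrays, changed by 0.36 in wild type and by 0.06 in knockout, and differed by 0.18 between knockout and wild type on low fat diet. The other probes of Clec1a changed by -0.04 and 0.08, and a dim probe of Fcgr2b by -0.16, in wild type. Another probe of Fcgr2b, detected on 12 arrays, changed by 0.72 in wild type and by 1.01 in knockout. It was called in knockout (limma adjusted p = 0.0354 over all probes), while the brightest probe of Fcgr2b was not (0.0627). The second probe of Clec4a3 changed by 0.81 in knockout and was not called there (adjusted p = 0.109 over all probes), and the second probe of Clec2e changed by -0.02 in knockout and by 0.16 in wild type. The sources used here do not say which transcripts these probes report.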

How the data were processed

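RNA pools from 12 samples, 3 in each of 4 groups, were measured on an Illumina bead array. The normalized intensities deposited in the series' value table were made by the authors with GenomeStudio, per the submitters' processing notes (GSGX 1.9.0 per the file headers of the raw table). They are linear, with 22.9% of them below 0. The authors also deposited raw intensities and a detection p-value per probe, whose array codes are not tied to samples, so detection is a number of arrays; 20 signal columns belong to no sample and were not used. Gene names stand in a table without probe identifiers, which was joined to the probes by their 12 raw intensities (tolerance 0.05, no ambiguous match). Depth, as probes detected on an array, was 13389 to 15037, and the 3 arrays per group limit the precision.

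Changes are on log2(intensity + 50), an offset that compresses those of dim genes. Probes with detection p under 0.05 on at least 3 arrays were kept (15765), and each gene took its brightest, giving 11774 genes. A limma 3.58.1 fit (R 4.3.3) of 4 group means, with 8 residual degrees of freedom, gave 5 contrasts with two-sided p-values adjusted by Benjamini-Hochberg. Siah2 was tested by exact permutation. An intensity of 27.9, passed by the 52.1% of probes the least sensitive array detected, served as the floor; against a group below it the fold is a lower bound. Values per array were printed for Clec7a, the 12 largest wild type and the 8 largest knockout diet changes among called genes, genes called between genotypes, and otherwise the 3 smallest p-values. On simulated data, with 200 of 11774 genes changed by 2 on the log2 scale for diet in wild type, the fit recovered 186 and called 8 others. Smaller changes, a larger share of changed genes and the other contrasts were not simulated, so these numbers do not carry over to them. The genes and lists were chosen with earlier results of these data known. The replicate numbers do not pair the samples (correlation of deviations -0.812 to 0.162 over 18 pairs). Alternatives are given in the closing section. Promoters are RefSeq's, matched by symbol for 27 of 36 genes.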

Additional observations from a re-analysis of the deposited data

How the results depend on the processing

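Counts of receptor genes called were compared over 27 alternative settings. The epididymal covariate left 1 gene for diet in knockout, 1 in wild type and 0 for knockout on low fat diet, with larger standard errors. With only the groups compared in the fit, 3 genes were called for diet in knockout and 0 for knockout on low fat. Array weights gave 5 for knockout on low fat and 1 for the difference between the diet changes. Leaving out the sample labelled knockout, low fat, replicate 1, together with knockout on high fat, replicate 2, gave 1 for diet in knockout and 5 for knockout on low fat, while leaving out replicate 2 of both knockout groups, a setting chosen after the data were seen, gave 20 for diet in knockout and 0 for knockout on low fat. Leaving out each array in turn gave 5 to 17 for diet in knockout, 23 to 27 for diet in wild type, 0 to 0 for knockout on high fat, 0 to 3 for knockout on low fat and 0 to 1 for the difference. Shares of all genes called without these arrays are not given, so such counts, here and above, are no result about the receptors alone. The genotype difference in Siah2 ran from -40.2 to -28.5 intensity units (exact p 0.00433 to 0.0216). With the replicate number as a block the count was 0 for knockout on low fat (Clec7a adjusted p = 0.066, Clec4d 0.0692) and 10 for diet in knockout. Of all genes, cyclic loess called 2161 higher and 2514 lower for diet in wild type, in place of 2674 and 1972, and 364 higher and 522 lower for knockout on low fat, in place of 554 and 371. It called 23 receptor genes higher and 3 lower for diet in wild type, and 2 higher and 1 lower for knockout on low fat. The 511 genes of all called for diet in knockout became 14 with the covariate, 301 with the block, 134 with only the groups compared and 1206 with array weights, and the 925 for knockout on low fat became 4, 118, 4 and 2731. The cause of these shifts was not tested, except that leaving out arrays or groups leaves fewer samples. Over 29 named changes and their alternatives, 711 of 773 values kept direction and side of the threshold, 59 were no longer called, 20 of them under the covariate, 3 were newly called (Clec4d, difference between diet changes) and 0 reversed. Clec11a, which was not among the named changes, changed sign for diet in wild type under the covariate and was not called there. Lower limits apply where a group lies below the floor, and 28 of 64 genes gave no usable signal.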
